A study of Homo sapiens with 6 samples.

Results

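The 10 genes described here encode core pluripotency factors of human embryonic stem cells. They are POU5F1, NANOG, SOX2, LIN28A, LIN28B, SALL4, PRDM14, ZFP42, UTF1 and L1TD1. They were chosen by symbol from the 61155 gene symbols of the count table, and all 10 passed the filter on low counts that left 19521 genes for testing. RNA was sequenced from undifferentiated H7 cells, an established human embryonic stem cell (hESC) line grown without feeder cells on Matrigel in TeSR-E8 medium. There were 3 wild-type (WT) libraries and 3 S6K1-/- libraries. In the S6K1-/- cells, Cas9 guides had targeted exons 9 and 11 of RPS6KB1, the gene of ribosomal protein S6 kinase 1 (S6K1), a kinase downstream of mTORC1 that promotes protein synthesis and growth. All S6K1-/- libraries came from clone #1 per the study's text, so the genotype and the clone cannot be told apart. The labels of all 6 libraries also give a time of week 5, and call the genotype of the S6K1-/- libraries a knockdown, while the treatment and the methods describe undifferentiated knockout cells. The sources do not say that replicates were separate cultures, so p-values measure the spread between these libraries, which may be technical.

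OCT4 (encoded by POU5F1), SOX2 and NANOG are transcription factors that bind many of the same enhancers and promoters in embryonic stem cells, their own included, and hold the cells in the undifferentiated state. The other members act beside them. SALL4 and PRDM14 are zinc finger regulators of the same network. LIN28A and LIN28B are RNA-binding proteins that block the maturation of let-7 microRNAs. ZFP42 (REX1), UTF1 and L1TD1 are markers of the undifferentiated state. The comparison asks whether the RNA of these factors differed between WT and S6K1-/- hESCs before any differentiation.

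RNA of POU5F1, NANOG, SOX2 and LIN28A was at nearly the same level in both groups. PRDM14 rose by 22.2% in S6K1-/- hESCs and was the member past the threshold of an adjusted p of 0.001. UTF1 was 32.5% higher and ZFP42 12.7% higher, while SALL4 was 11.4% lower, and these 3 differences stayed on the other side of that threshold. In counts, 0 of 10 members were called lower and 1 of 10 higher, beside 2.54% and 1.42% of all genes tested (3.96% in either direction). With an adjusted p under 0.05, 1 member was lower and 3 were higher, beside 8.31% and 5.47% of all genes. At an unadjusted p under 0.05 there were 2 lower and 3 higher members, beside 14.5% and 11.8% of all genes. DESeq2 called 0 members lower and 1 higher at 0.001, beside 2.25% and 1.57% of the 20748 genes with an adjusted p from that tool. The median log2 fold change was 0.0086 over the members and -0.0024 over all genes tested. The values of WT and S6K1-/- libraries did not overlap for 6 members, 3 of them lower and 3 higher, beside 30.7% of all genes (16.7% lower and 14.0% higher). Among the 3103 genes with a mean level within the range of the members, a group set up after the data were seen, 1.39% were called lower, 2.09% higher and 33.9% did not overlap.

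**Figure D1:**
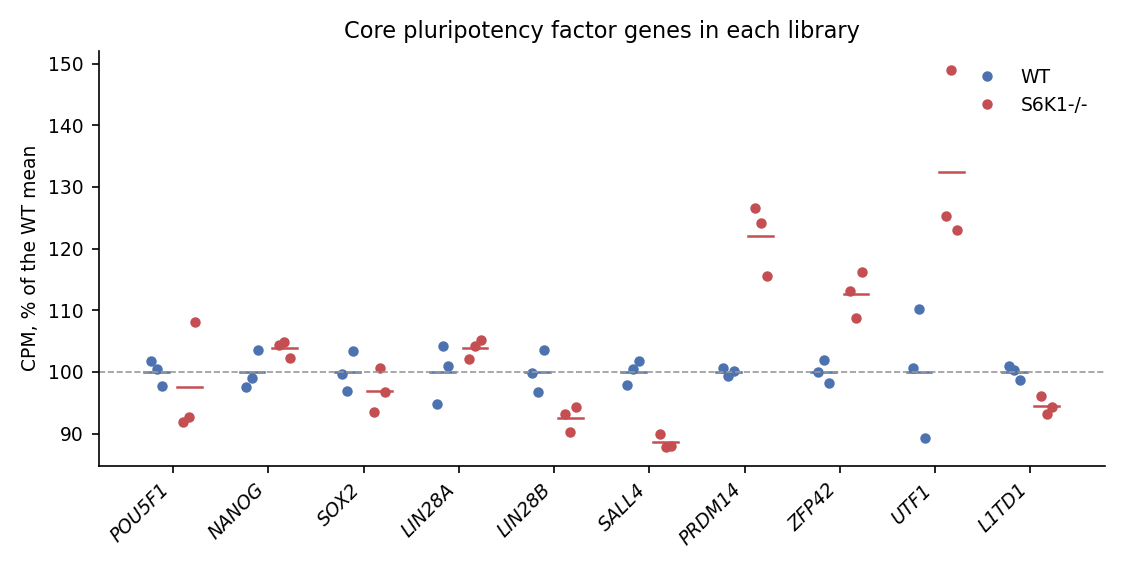
Level of each core pluripotency factor gene in each library, in CPM (counts scaled to the library total) as a percentage of the WT mean, with 3 WT (blue) and 3 S6K1-/- (red) libraries and a short line at each group mean. The red points of PRDM14, ZFP42 and UTF1 lie above all blue points of the same gene, those of SALL4, LIN28B and L1TD1 lie below them, and the other 4 genes overlap.

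The libraries held 21896698 to 24473013 counts assigned to genes. RPS6KB1 itself, the targeted gene, fell from 33.3 ± 0.99 to 19.8 ± 0.37 CPM (mean ± SD, n = 3 each), where CPM are counts scaled to the library total. Its log2 fold change was -0.75 (SE 0.057, adjusted p = 2.52e-07). The summed level of 9 stem cell markers was 6110 to 6260 CPM in WT and 5630 to 5700 CPM in S6K1-/- libraries, with none at or under 3 counts in every library. The members POU5F1, NANOG, SOX2 and LIN28A are among the 9. DNMT3B had the largest fall of the 9, from 1400 to 1431 CPM in WT to 1069 to 1161 CPM in S6K1-/- libraries, while the means of NANOG and LIN28A were higher. Lineage markers were summed over the whole lists for other cell types that such a culture could hold. The 20 neuroectoderm markers summed to 565 to 593 CPM in WT and 524 to 545 CPM in S6K1-/- libraries, of which NES alone had 429.6 to 448.6 and 414.6 to 430.6 CPM. The 18 mesendoderm markers summed to 135 to 145 and 137 to 139 CPM, mostly KDR. The 17 amnion and trophoblast markers summed to 483 to 517 and 484 to 518 CPM, mostly KRT18. NES, KDR and KRT18 are also expressed outside these lineages. The shorter sets of 7 defining markers each summed to 48.9 to 53.4 CPM in WT and 51.5 to 58.4 CPM in S6K1-/- libraries for neuroectoderm, and to 17.3 to 21.4 and 17.3 to 18.2 CPM for mesendoderm, with GATA6 and SOX17 at or under 3 counts throughout. The 7 of amnion and trophoblast summed to 5.6 to 7.2 and 3.72 to 4.09 CPM, with CDX2, ISL1 and CGA at that floor and KRT7 holding 4.26 to 5.82 and 2.57 to 3.13 CPM of it. Sums separated by genotype for the stem cell markers, the 20 neuroectoderm markers and the 7 of amnion and trophoblast, and their part in the members' values was not tested. In bulk RNA, fewer cells of a type and less RNA per cell cannot be told apart.

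POU5F1 and NANOG have near copies elsewhere in the genome, which matters for how their reads could be placed. POU5F1 lies at chr6:31164337-31180731 (minus strand, GENCODE 44 on GRCh38) in the major histocompatibility region, for which the assembly also holds alternate contigs. Of 94 windows of 100 bases within the exons of its canonical transcript, 84 (89.4%) had an exact copy on an alternate contig, over 6 contigs, and 26 (27.7%) had one elsewhere in the assembly. For NANOG, at chr12:7787794-7799146 (plus strand), 104 of 481 windows (21.6%) had an exact copy elsewhere. For L1TD1, LIN28A and LIN28B the share was 1.7%, 3.3% and 2.4%, and for the other 5 members it was 0. Whether the authors' index held the alternate contigs is not given in the sources used here.

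The coding sequence of POU5F1 aligned to the pseudogene POU5F1P3 with 98.1% identity and to POU5F1P4 with 97.2%. POU5F1B, the copy with the most counts, was not aligned. A stretch of 150 bases, the length of 1 read, is shown as an example of the letters that separate POU5F1 from a copy. It was chosen, within 1 exon and where both copies aligned, for the most differences from POU5F1P3. Other stretches can differ by fewer letters. Bases 114 to 263 of the POU5F1 coding sequence lie at chr6:31170358-31170507 (minus strand) within exon sequence, and the matching stretch of POU5F1P4 at chr1:155433294-155433443 (plus strand). Capitals mark the 5 positions where they differ.
POU5F1: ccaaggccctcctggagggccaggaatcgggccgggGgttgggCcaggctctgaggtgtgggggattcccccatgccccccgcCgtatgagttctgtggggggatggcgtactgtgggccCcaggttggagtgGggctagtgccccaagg
POU5F1P4: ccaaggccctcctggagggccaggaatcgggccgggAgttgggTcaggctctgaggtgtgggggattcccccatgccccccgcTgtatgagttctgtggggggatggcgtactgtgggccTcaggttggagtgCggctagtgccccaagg

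NANOG and its retrocopy NANOGP8 were closer still, with 99.5% identity over the 915 coding bases. NANOGP1 had the same identity over the 416 bases that aligned. Coding bases 502 to 651 are shown, chosen by the same rule for the most differences from NANOGP8. They lie at chr12:7794679-7794828 (plus strand) for NANOG and chr15:35084460-35084609 (minus strand) for NANOGP8, and a capital marks the 1 base that differs. NANOGP1 at chr12:7898487-7898636 (plus strand) had the same letters as NANOGP8 over this stretch.
NANOG: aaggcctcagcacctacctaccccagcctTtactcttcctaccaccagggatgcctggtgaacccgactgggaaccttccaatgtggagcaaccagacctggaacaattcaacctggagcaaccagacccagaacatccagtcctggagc
NANOGP8: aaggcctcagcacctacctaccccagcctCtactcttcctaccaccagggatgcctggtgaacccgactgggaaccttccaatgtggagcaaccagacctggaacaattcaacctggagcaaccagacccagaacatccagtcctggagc

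The copies carried counts in every library. POU5F1B, POU5F1P3 and POU5F1P4 together had 2020 to 2312 counts per library, which was 47.4% to 51.8% of the POU5F1 count. NANOGP8 and NANOGP1 together had 1409 to 1669 counts, 30.3% to 35.3% of the NANOG count. These 5 copies gave log2 fold changes of -0.10 (POU5F1B, adjusted p = 0.254), 0.02 (POU5F1P3, adjusted p = 0.875), -0.04 (POU5F1P4, adjusted p = 0.798), 0.09 (NANOGP8, adjusted p = 0.256) and 0.22 (NANOGP1, adjusted p = 0.198), none of them past 0.05. All other pseudogene symbols of the members had 10 counts or fewer in every library. How the reads of gene and copies were divided was not tested. With each copy's count added to its gene, a setting chosen after seeing the data, the log2 fold change was -0.04 for POU5F1 (adjusted p = 0.681) and 0.07 for NANOG (adjusted p = 0.30). Over all settings run, the adjusted p was 0.133 to 0.997 for POU5F1 and 0.263 to 0.621 for NANOG.

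**Figure D2:**
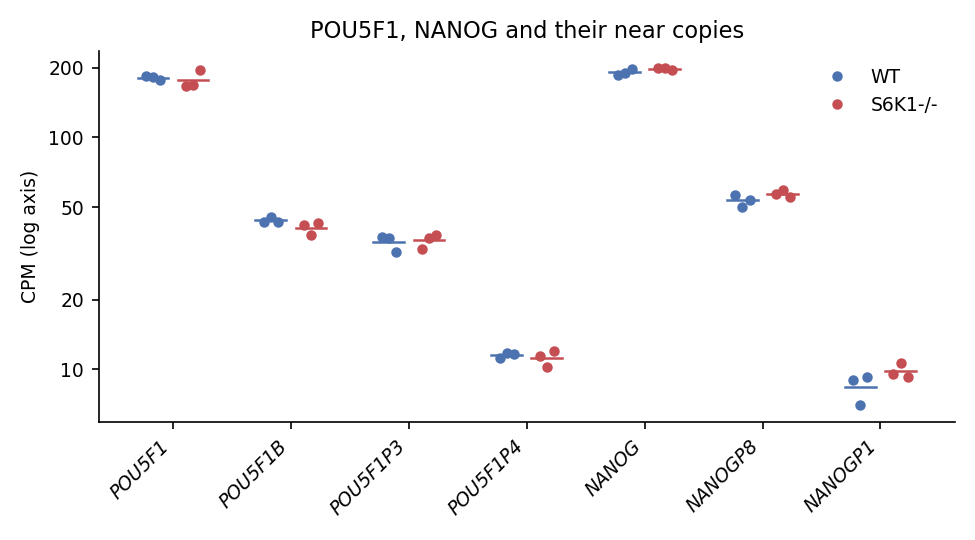
CPM (log axis) of POU5F1, NANOG and the 5 near copies with counts, in 3 WT (blue) and 3 S6K1-/- (red) libraries, with a short line at each group mean. The points of both groups overlap for every gene except POU5F1B, whose S6K1-/- libraries lie at 37.8 to 43.0 CPM and WT libraries at 43.1 to 45.3 CPM.

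Among the 3 factors at the centre of the network, POU5F1 was at 184.4, 182.2 and 177.2 CPM in WT replicates 1 to 3 and at 166.7, 168.0 and 195.9 CPM in S6K1-/- replicates 1 to 3. S6K1-/- replicate 3 was the highest of all 6 libraries and the other 2 S6K1-/- libraries were the lowest, so the groups overlapped. The log2 fold change was -0.04 (SE 0.055, adjusted p = 0.733), with a 95% interval for the change of -10.1% to 5.70%. Without S6K1-/- replicate 3 the estimate was -0.11, and without S6K1-/- replicate 1 or 2 it was 0.0055 or 6e-04, so its direction rested on single libraries. TCF19, a gene on the opposite strand whose exons overlap those of POU5F1, had 18 to 26 counts per library.

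NANOG was at 186.1, 189.1 and 197.6 CPM in WT and at 199.3, 200.1 and 195.1 CPM in S6K1-/- libraries. WT replicate 3 was within the range of the S6K1-/- libraries. The log2 fold change was 0.05 (SE 0.039, adjusted p = 0.428), with an interval for the change of -2.05% to 9.98%.

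SOX2, a single-exon gene at chr3:181711925-181714436 (plus strand), was at 299.5, 291.5 and 310.9 CPM in WT and at 280.9, 302.7 and 291.0 CPM in S6K1-/- libraries. The groups overlapped, and the log2 fold change was -0.04 (SE 0.042, adjusted p = 0.564, change of -8.92% to 3.26%). SOX2-OT, the long noncoding RNA gene in which SOX2 lies, had 85 to 121 counts per library and a log2 fold change of -0.18 (SE 0.13, adjusted p = 0.411).

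A well-known link within this trio is the composite OCT4 and SOX2 element of the NANOG promoter, shown because it is the site through which OCT4 and SOX2 are known to act on NANOG. The promoter table (RefSeq, GRCh38.p14, 250 bases before to 50 after each start) held 6 of the 10 members, and POU5F1, LIN28A, SALL4 and PRDM14 had no entry. The search took TTTGCAT followed by ACAAT with at most 1 base between, on both strands. It matched in 7 of 35116 promoters (0.02%), and of the members it matched in NANOG. TTTGCAT alone was in 4.46% of promoters, including those of NANOG and SOX2, and ACAAT alone in 27.4%, including those of NANOG and LIN28B. The NANOG match lay 108 to 120 bases before the start, and capitals mark it within chr12:7789258-7789317 (plus strand). A match is a description of the letters and not evidence of binding in these cells.
NANOG promoter: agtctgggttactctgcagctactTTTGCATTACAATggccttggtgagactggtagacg

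**Figure D3:**
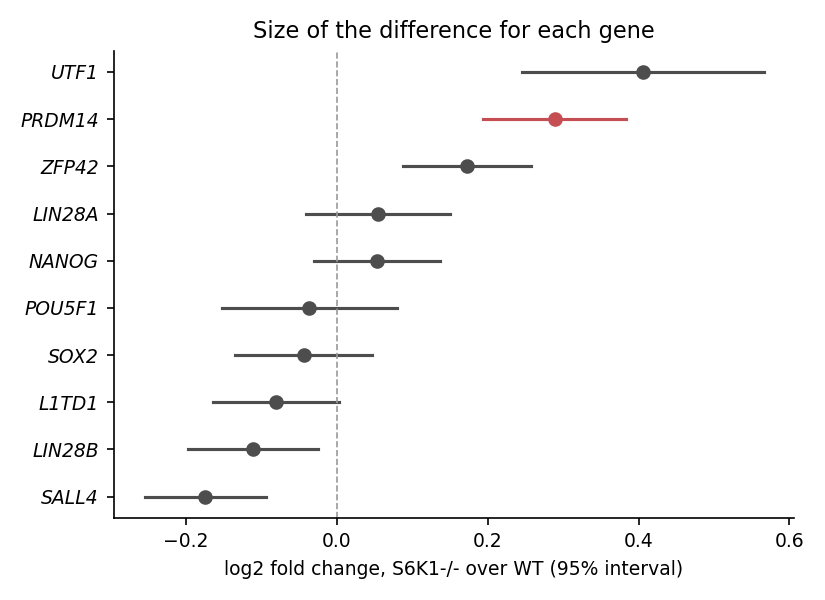
Log2 fold change of each member, S6K1-/- over WT (points), with its 95% interval from edgeR (lines), ordered by size. PRDM14 (red) was called at an adjusted p under 0.001. The intervals of POU5F1, NANOG, SOX2, LIN28A and L1TD1 include 0, and UTF1 has the widest interval, from 0.25 to 0.57.

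SALL4 and PRDM14 are the zinc finger regulators of the group. SALL4 (chr20:51782331-51802521, minus strand) was at 184.4, 189.3 and 191.9 CPM in WT and at 169.6, 165.6 and 165.9 CPM in S6K1-/- libraries. All S6K1-/- libraries were below all WT libraries, and the spread within each group was small (SD 3.8 and 2.2 CPM). The log2 fold change was -0.17 (SE 0.038, adjusted p = 0.00566), short of the threshold of 0.001. Leaving out each library in turn gave estimates of -0.18 to -0.15, with adjusted p from 0.00841 to 0.0409.

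PRDM14 (chr8:70051651-70071693, minus strand) encodes a repressor that helps to keep embryonic stem cells and germ cell precursors from differentiating, and it activates POU5F1 in human cells. It was at 62.8, 62.0 and 62.5 CPM in WT and at 79.0, 77.5 and 72.2 CPM in S6K1-/- libraries, and the groups did not overlap. The WT libraries lay within 1 CPM of each other, and S6K1-/- replicate 3 was the lowest of its group. The log2 fold change was 0.29 (SE 0.044, adjusted p = 0.000362), a rise of 22.2% with an interval of 14.4% to 30.5%. PRDM14 was higher in all 6 fits that left out 1 library, by 0.26 to 0.33. It was called in 2 of these fits, without WT replicate 2 or without S6K1-/- replicate 3. Its adjusted p was 0.00158 without WT replicate 1, 0.00232 without WT replicate 3, 0.0039 without S6K1-/- replicate 1 and 0.00248 without S6K1-/- replicate 2. Over the 6 libraries, the genes whose log2 CPM followed PRDM14 most closely were SNX1 (Pearson r = 0.999), PLBD2 (0.996) and IGDCC4 (0.995), the highest of 10483 genes searched. These 6 libraries share the split into 2 genotypes, and the correlations are a description.

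Of the markers of the undifferentiated state, UTF1 differed most in size and also varied most within groups. It lies at chr10:133230217-133231558 (plus strand) and encodes a chromatin-associated factor of undifferentiated cells. UTF1 was at 96.3, 105.4 and 85.4 CPM in WT and at 119.9, 142.6 and 117.7 CPM in S6K1-/- libraries. Every S6K1-/- library was above every WT library, with WT replicate 2 and S6K1-/- replicate 2 the highest of their groups. The within-group coefficient of variation was 10.5% in WT and 10.8% in S6K1-/- libraries, while it was 0.69% to 9.33% for the other members. The log2 fold change was 0.41 (SE 0.075, adjusted p = 0.00170), a difference of 32.5% with an interval of 18.6% to 48.0%. Without WT replicate 2 the adjusted p was 0.000261, and the other 5 fits without 1 library gave no call. With the replicate number as a block UTF1 was called (adjusted p = 3.07e-05). Over all settings run the adjusted p was between 1.42e-16, without the filter on low counts, and 0.0131, with DESeq2.

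UTF1 also stands apart in base composition. The G and C share of its transcript was 76.9%, at percentile 100 of the 15736 tested genes with a known transcript sequence, and that of the other members was 38.0% to 54.4%. The deviation of UTF1 from its mean log2 level was -0.19, -0.06 and -0.36 in WT and 0.13, 0.38 and 0.10 in S6K1-/- libraries. The median deviation of the 18 tested genes with at least 70% G and C was -0.004, 0.08 and -0.03 in WT and -0.09, 0.05 and -0.01 in S6K1-/- libraries. Replicate 2 was the highest library of each group in both measures. With a trend on base composition removed from each library, a setting added after the adjusted p of 0.00170 had been seen, the log2 fold change was 0.50 (SE 0.050, adjusted p = 1.11e-05). The genes most like UTF1 over the 6 libraries were MCM2 (Pearson r = 0.998), LAMP1 (0.994) and SRSF2 (0.993), given as a description.

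ZFP42 (chr4:187995771-188005046, plus strand), the gene of the zinc finger protein REX1, was at 147.6, 150.5 and 145.0 CPM in WT and at 167.1, 160.6 and 171.6 CPM in S6K1-/- libraries. The groups did not overlap. Its log2 fold change was 0.17 (SE 0.040, adjusted p = 0.00874), and in the 6 fits without 1 library it was 0.16 to 0.20, with adjusted p from 0.00666 to 0.0414.

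L1TD1 (chr1:62194849-62212328, plus strand), an RNA-binding protein gene derived from a LINE-1 element, was at 952.2, 947.3 and 931.1 CPM in WT and at 906.2, 879.5 and 890.4 CPM in S6K1-/- libraries. All S6K1-/- libraries were below the WT libraries, but the log2 fold change was -0.08 (SE 0.039, adjusted p = 0.206), with an interval for the change of -10.8% to 0.20%.

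LIN28A and LIN28B bind precursors of let-7, a microRNA family that represses growth and cell cycle genes, and the let-7 family in turn represses LIN28 RNA. The hairpin of let-7g is shown with its GGAG, the letters that the zinc knuckles of LIN28 recognise, in capitals (chr3:52268278-52268361, minus strand, RefSeq, GRCh38.p14). The mature let-7g-5p is shown with its seed, bases 2 to 8, in capitals (chr3:52268336-52268357). All 9 mature let-7 and miR-98 5p sequences in the table had this seed, and 9 of 12 hairpins held GGAG. A match to the seed, CTACCTC, was in the 3′ untranslated region of LIN28B 4 times and of LIN28A and SALL4 1 time each, and in 0 of the other 7 members. Of 13777 tested genes with such a region in the canonical transcript, 11.2% had at least 1 match. let-7 RNA itself was not measured by these libraries of polyadenylated RNA.
let-7g hairpin: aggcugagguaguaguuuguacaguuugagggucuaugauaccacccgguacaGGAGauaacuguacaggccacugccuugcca
let-7g-5p: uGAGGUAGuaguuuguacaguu

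LIN28A (chr1:26410817-26429728, plus strand) had the highest counts of the members, at 1110, 1220 and 1181 CPM in WT and at 1195, 1220 and 1230 CPM in S6K1-/- libraries. WT replicate 1 was the lowest library and the groups overlapped. The log2 fold change was 0.05 (SE 0.045, adjusted p = 0.495), with an interval for the change of -2.84% to 10.9%. LIN28B (chr6:104936616-105083332, plus strand) was at 203.4, 197.2 and 211.0 CPM in WT and at 190.0, 183.9 and 192.4 CPM in S6K1-/- libraries. Its S6K1-/- libraries were below its WT libraries, and the log2 fold change was -0.11 (SE 0.040, adjusted p = 0.0860). The antisense gene LIN28B-AS1, which overlaps it, had 39 to 53 counts per library.

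Of 24 tested genes of the LIN28 and let-7 pathway, 0 were called lower and 1 higher, beside 2.54% and 1.42% of all genes. A log2 fold change below 0 was seen for 4 of the 24 and for 50.6% of all genes. Their median was 0.07, beside -0.0024 over all genes tested. CDK6, a cell cycle kinase, rose from 84.9 to 94.6 CPM in WT to 104.9 to 109.6 CPM in S6K1-/- libraries (log2 fold change 0.27, SE 0.046, adjusted p = 0.000796). Its 3′ untranslated region held 0 matches to the let-7 seed. The call on CDK6 was lost with the replicate number as a block (adjusted p = 0.00142) and when any library except WT replicate 3 was left out (adjusted p = 0.00214 to 0.00673).

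Compared between genes per kilobase of annotated exon, the WT levels spanned from 294.5 ± 14.1 CPM per kilobase for LIN28A to 26.4 ± 0.18 for PRDM14 (mean ± SD, n = 3). L1TD1 followed LIN28A at 246.3 ± 2.9, then SOX2 at 119.7 ± 3.9 and UTF1 at 78.8 ± 8.3. POU5F1 was at 63.2 ± 1.3, ZFP42 at 55.7 ± 1.0, NANOG at 35.4 ± 1.1, LIN28B at 34.3 ± 1.2 and SALL4 at 32.7 ± 0.66. Neighbours in this order had separate ranges in WT, except that LIN28B overlapped both NANOG and SALL4. In S6K1-/- libraries ZFP42, at 62.8 ± 2.1, stood above POU5F1, at 61.6 ± 5.7, with overlapping ranges. PRDM14, at 32.2 ± 1.5, stood above SALL4, at 28.9 ± 0.39, and its range held that of LIN28B, at 31.8 ± 0.74. The place of POU5F1 depended on the length used, since its level in WT was 128.7 CPM per kilobase of the canonical transcript, above that of SOX2. By that length LIN28B, at 37.43 in WT, also stood above NANOG, at 36.85. How reads of POU5F1 and NANOG were divided with their copies was not tested, so their places in this order carry that limit.

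**Figure D4:**
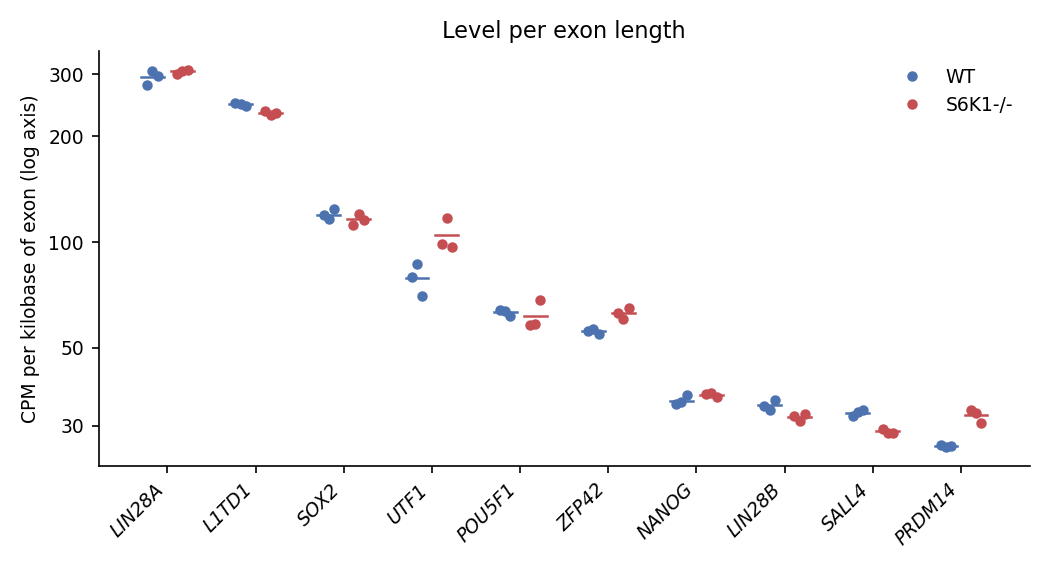
Level of each member in CPM per kilobase of annotated exon (log axis), in 3 WT (blue) and 3 S6K1-/- (red) libraries, with a short line at each group mean, ordered by the WT mean. LIN28A and L1TD1 were the highest in both groups, and PRDM14 was the lowest in WT but not in S6K1-/- libraries.

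The wider pluripotency network was read from lists of other genes. Of 27 other pluripotency regulators tested, 1 was called lower and 2 higher, beside 2.54% and 1.42% of all genes. Their median log2 fold change was -0.08, and that of all genes tested was -0.0024. OTX2, a transcription factor of the primed state and of anterior neural tissue, fell from 17.4 to 19.3 CPM in WT to 10.8 to 13.0 CPM in S6K1-/- libraries (log2 fold change -0.63, SE 0.079, adjusted p = 6.03e-05). NR5A2, a nuclear receptor that can activate POU5F1, rose from 33.2 to 37.4 CPM to 46.7 to 50.7 CPM (0.50, SE 0.058, adjusted p = 2.21e-05). SALL1, a relative of SALL4, rose from 94.1 to 105.0 CPM to 114.6 to 130.7 CPM (0.31, SE 0.053, adjusted p = 0.000881). The call on SALL1 was lost with the replicate number as a block (adjusted p = 0.00176) and without WT replicate 1 or 2 or S6K1-/- replicate 1 or 2 (adjusted p = 0.00246 to 0.00712).

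Of 22 stem cell signals, surface and other markers, 7 were called lower and 1 higher, beside the same 2.54% and 1.42% of all genes, and the median log2 fold change was -0.09, beside -0.0024. Those with the smallest p among the lower genes were FZD7, LEFTY2, GAL and FGF2. FZD7, a WNT receptor abundant in hESCs, fell from 212.3 to 219.8 CPM in WT to 121.7 to 121.8 CPM in S6K1-/- libraries (log2 fold change -0.82, adjusted p = 6.55e-10). LEFTY2, a secreted inhibitor of NODAL and a target of its pathway, fell from 15.8 to 16.7 CPM to 8.27 to 9.23 CPM (-0.91, adjusted p = 7.42e-07). GAL, the neuropeptide galanin, fell by 0.64 and FGF2, the growth factor that sustains hESCs, by 0.39 on the log2 scale (adjusted p = 1.08e-06 and 1.98e-05). DNMT3B, the de novo DNA methyltransferase, fell by 0.35 and EPCAM, a surface adhesion protein, by 0.31 on the log2 scale (adjusted p = 4.88e-05 and 1.76e-04). Both belong to the summed stem cell markers. The call on EPCAM was lost without WT replicate 1 or 3 or without S6K1-/- replicate 1 or 2 (adjusted p = 0.00103 to 0.00233). GDF3, a ligand of the TGFβ family, rose by 0.34 (adjusted p = 3.99e-04). That call was lost without WT replicate 1 or 3 or without S6K1-/- replicate 1 or 2.

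Lineage markers were tested in smaller numbers, since many were at or near 0, and their counts stand beside 2.54% of all genes called lower and 1.42% called higher. Of 10 neuroectoderm markers, 2 were called lower and 1 higher. SIX6, an eye field factor, fell by 1.57 and VIM, an intermediate filament gene, by 0.55 on the log2 scale (adjusted p = 1.41e-08 and 6.22e-06), and PAX6 rose by 0.76 (adjusted p = 2.69e-04) from 4.07 to 4.95 CPM in WT to 6.86 to 8.32 CPM. Of 9 mesendoderm markers, FOXA1, a pioneer factor of endoderm, was called lower, with a log2 fold change of -0.65 (adjusted p = 8.82e-05), and 0 were called higher. The call on PAX6 was lost without WT replicate 1 or without S6K1-/- replicate 2 or 3 (adjusted p = 0.00149 to 0.00228), and that on FOXA1 without S6K1-/- replicate 3 (adjusted p = 0.00114). Of 6 amnion and trophoblast markers, 0 were called lower and 2 higher. GATA2 rose by 0.87 and TFAP2C by 0.38 on the log2 scale (adjusted p = 6.39e-05 for each), the former from 3.09 to 3.45 CPM in WT to 5.89 to 6.02 CPM in S6K1-/- libraries.

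**Figure D5:**
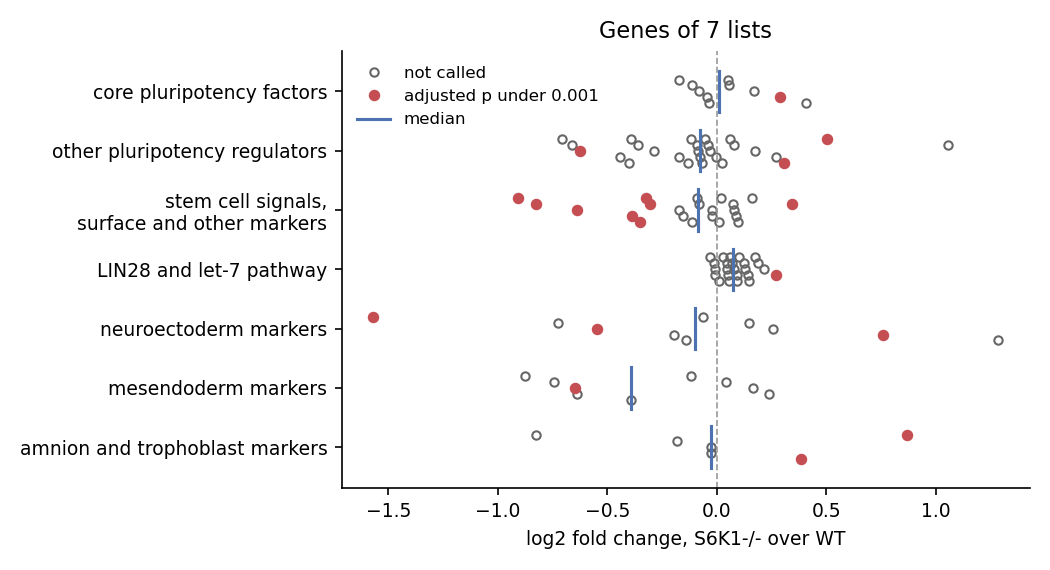
Log2 fold change (S6K1-/- over WT) of every tested gene of 7 lists, with genes called at an adjusted p under 0.001 in red, other genes as open circles and a vertical line at each list's median. The 10 core pluripotency factors lie between -0.17 and 0.41, with 1 called, while genes of the stem cell signals, surface and other markers reach -0.91, with 8 called.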

How the data were processed

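Libraries were made with a stranded mRNA kit from total RNA of undifferentiated hESCs (3 WT, 3 S6K1-/-). The authors trimmed reads with Trim Galore 0.6.5, aligned them with Bowtie2 2.4.5, which does not split reads across introns, converted and sorted the alignments with Sambamba, and counted reads per gene with featureCounts. The deposited table holds these raw counts on GRCh38. Which annotation release and which strand setting were used is not given in the sources used here. A second deposited table, of the authors' own comparison, holds their fold changes and p-values and was not used.

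From the counts, genes were filtered with filterByExpr, scaled by TMM and tested with the quasi-likelihood F test of edgeR 4.0.16 (R 4.3.3), with genotype as the term and Benjamini-Hochberg adjustment over 19521 genes. A gene was called at an adjusted p under 0.001, the threshold of the study's methods. Every adjusted p in the text is from this test unless another is named. CPM are counts scaled to the TMM-adjusted library total, ± gives the SD, and intervals are 95%. An exact permutation test of 3 against 3 cannot go below p = 0.10 and was not used. DESeq2 1.42.0 was an alternative. Gene models were from GENCODE 44 and copies were found with minimap2 2.31. The edgeR script was tested on simulated data.

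The members and lists were chosen with earlier results of these data known. Genes named are all 10 members, RPS6KB1, up to 4 called genes in each direction with the smallest p from each list, the pseudogene symbols of members, POU5F1B, SOX2-OT and LIN28B-AS1, and for PRDM14 and UTF1 the 3 genes of at least 10 CPM with the highest correlation. DNMT3B, EPCAM, NES, KDR, KRT7, KRT18 and TCF19 were named outside this rule after their values were seen. So were GATA6, SOX17, CDX2, ISL1 and CGA, as summed markers at the floor of counts. The alternatives that sum near copies, correct for base composition or use the canonical length were added after seeing the data.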

Additional observations from a re-analysis of the deposited data

How the results depend on the processing

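PRDM14 was called higher and RPS6KB1 lower in every fit that kept all 6 libraries, and no setting with an adjusted p of 0.001 called a member lower. With an adjusted p under 0.05, 1 member was called lower (SALL4) and 3 higher. The count of higher members was 2, with UTF1 added, without the filter on low counts, with the replicate block and with base composition offsets, the last of these added after seeing the data. Leaving out 1 library at a time gave 0 to 2 higher members. The estimate for POU5F1 then ran from -0.1079 to 0.0055 and changed sign without S6K1-/- replicate 1 (0.0055) or 2 (6e-04), while the other 9 members kept their direction.

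For the other lists, an adjusted p under 0.05 gave 3 lower and 5 higher regulators, 4 higher genes of the LIN28 and let-7 pathway, and 6 lower and 5 higher lineage markers. Without the filter on low counts there were 3 higher genes of the LIN28 and let-7 pathway and 5 lower lineage markers, and DESeq2 also gave 3 of the former. Without 1 library the counts were 1 to 2 higher regulators, 0 to 1 higher signals and surface markers, 0 to 1 higher LIN28 and let-7 genes and 2 to 5 lower lineage markers. Over all genes, the calls were 982 lower and 591 higher without the filter, 1622 lower and 1067 higher at 0.05, and 313 to 445 lower and 175 to 235 higher without 1 library. For these changes the cause was not tested, apart from the smaller number of libraries and the looser threshold.

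Same-numbered libraries correlated with r of 0.196, 0.099 and 0.079 in their deviations from the group means, all above 0. Pairs with different numbers ran from -0.255 to 0.135, the highest being WT replicate 2 with S6K1-/- replicate 3. It is not stated that the numbers mark a shared batch, so the block was kept as an alternative. With the replicate block, 2 members were higher (UTF1 at an adjusted p of 3.07e-05), 1 regulator was higher and 0 LIN28 and let-7 genes were, and all genes gave 423 lower and 241 higher.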
